A study of Mus musculus with 6 samples.

Results

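Alveolar fibroblasts are the mesenchymal cells that lie in the walls of the air sacs, next to the alveolar epithelium. In the single-cell libraries of 6 bleomycin-injured mouse lungs they were defined by a rule on counts of unique molecular identifiers (UMIs), each of which stands for 1 captured RNA molecule. A barcode was kept when it held at least 1000 UMIs and 500 genes with no more than 10% of its UMIs in mitochondrial genes. A kept barcode was called an alveolar fibroblast when at least 2 of the 5 genes Col1a1, Col1a2, Col3a1, Pdgfra and Mfap4 had a UMI, when Npnt, Tcf21 and Limch1 together had at least 2 UMIs and more than Pi16, Dpt and Lum together, and when the endothelial gene Cdh5 and the leukocyte gene Ptprc had none. This rule selected 71 of 25704 kept barcodes. Cells chosen by the mirror rule, with more Pi16, Dpt and Lum than Npnt, Tcf21 and Limch1, are called adventitial fibroblasts below and numbered 300.

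All 6 mice were male knock-in animals (hCTLA4, on the C57BL/6 background) whose CTLA4 gene carries human coding exons, and were 12 weeks of age. Each received bleomycin by the oropharyngeal route at 1.25 U/kg in 2 doses given 2 weeks apart, so no uninjured lung is among the samples. From day 21 after the second dose, 3 mice were injected intraperitoneally with an IgG1 isotype control antibody, and 3 with ipilimumab, an antibody that blocks human CTLA4, at 5 mg/kg in 2 injections a week for 4.5 weeks. The right lung was then dissociated and each mouse gave 1 library of 3′ transcript counts. The comparison asks whether alveolar fibroblasts differ in number or in expression between injured lungs with and without CTLA4 blockade.

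Lung fibroblasts divide by position. Alveolar fibroblasts express the transcription factor Tcf21 and the receptor Pdgfra, secrete the basement membrane protein nephronectin (Npnt) and supply growth factors to the epithelium, and part of them store lipid. Adventitial fibroblasts surround airways and large vessels, produce decorin, lumican and dermatopontin, and include the Pi16-expressing cells found in the adventitia of many organs. After bleomycin, alveolar fibroblasts are known to be a source of the collagen-producing cells of the scar.

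The 71 cells were few and unevenly spread. The IgG1 mice gave 3, 6 and 8 of them and the ipilimumab mice 26, 11 and 17, among 4530, 4320 and 3344 and 5170, 4160 and 4180 kept barcodes. Their summed depth was 21034, 76651 and 105828 UMIs in the IgG1 mice and 346669, 82599 and 187791 UMIs in the ipilimumab mice, so the deepest IgG1 sum lay above the shallowest ipilimumab sum. Single cells held 1034 to 31307 UMIs with a median of 10561. In IgG1 replicate 1 a single cell contributed 47.4% of the summed UMIs, and that mouse, with fewer than 5 members, was left out of the expression test by a limit set on members per mouse, although its values are given throughout. Whole libraries held 37666042 to 48612412 UMIs. Ipilimumab replicate 1 stood apart in having 22056 barcodes of at least 100 UMIs where the other 5 libraries had 4834 to 6230. Pairs of libraries shared 0 to 9 kept barcodes, and no barcode was a member in more than 1 library.

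The label was set against the marker genes, most of which the rule itself used. Npnt, which encodes a matrix ligand of integrin α8β1, had a UMI in 60 of the 71 members. Limch1, an actin-binding regulator of non-muscle myosin, was found in 63 and Tcf21 in 54, and 41 cells had all 3. These genes chose the cells, so their presence is a description. Inmt, an indolethylamine N-methyltransferase that the rule did not use, was present in 60 of 71 cells (84.5%), and also in 213 of 300 adventitial fibroblasts (71%). Its level, as counts scaled to a common total (CPM), was 1947 ± 566 CPM in alveolar and 1111 ± 136 CPM in adventitial fibroblasts (mean ± SD over the 5 mice with at least 5 members), and higher in alveolar fibroblasts in each of the 5. Pdgfra, among the stromal genes of the rule, was present in 54 members (76.1%) and in 193 adventitial fibroblasts (64.3%). On the GRCm38 assembly these genes lie at chr3:132881745-132950291 (Npnt), chr10:22817281-22820174 (Tcf21), chr5:66745827-67057158 (Limch1), chr6:55170626-55175043 (Inmt) and chr5:75152292-75198215 (Pdgfra).

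At the edge of the rule, 6 members had exactly 2 UMIs of Npnt, Tcf21 and Limch1 together, while the median was 27. Of the 414 barcodes that met the stromal part of the rule, 4 had 1 such UMI with no adventitial UMI and stayed outside, 8 were ties, and 130 had at least 2 alveolar UMIs but more adventitial ones. Only 23 members had no UMI of Pi16, Dpt or Lum. Dpt was the adventitial gene they carried most often, in 43 of 71 cells, against 15 for Pi16 and 3 for Lum. Alveolar and adventitial fibroblasts were thus separated by the balance of 2 marker sums and not by the absence of either.

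**Figure D1:**
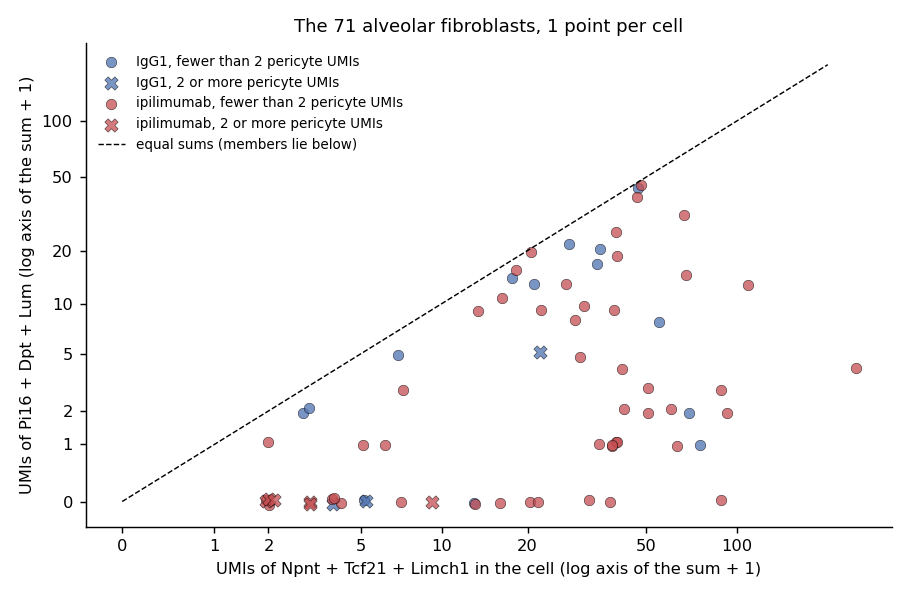
Each point is 1 of the 71 members, placed by its UMIs of Npnt, Tcf21 and Limch1 (x axis) and of Pi16, Dpt and Lum (y axis), both as log axes of the sum + 1 with a small random shift for visibility. Blue marks IgG1 and red ipilimumab, and crosses mark the 9 cells with at least 2 UMIs of pericyte genes, 8 of which lie at 0 on the y axis.

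A subset of 9 members carried genes of pericytes, the contractile cells that wrap capillaries. Each had at least 2 UMIs of Cspg4, Notch3, Cox4i2, Myh11 and Higd1b together. Notch3 was present in 9 of the 9 and Cox4i2 in 7, against 5 and 0 of the other 62 members. Both genes helped to choose the 9 cells, so these counts are a description. Postn, which encodes the matrix protein periostin and was not used in that choice, was present in 8 of the 9 and in 0 of the other 62. In the other direction, Inmt was found in 1 of the 9 and Pdgfra in 1, against 59 and 53 of the other 62. These 9 cells came from IgG1 replicates 1 (1 cell) and 2 (2 cells) and from ipilimumab replicates 2 (3 cells) and 3 (3 cells). They met the rule with 2 to 22 UMIs of Npnt, Tcf21 and Limch1 together. For the 8 with Postn the data go against the name alveolar fibroblast, whereas the other cell had 36 UMIs of Inmt and none of Postn or Cox4i2.

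Markers of other cell types were summed over the members of each mouse. Levels are given as CPM, the UMIs of a gene or list as a share of all UMIs summed, scaled to a common total of counts. The 16 listed pericyte and smooth muscle genes, all of which had a UMI, summed to 4992, 965 and 227 CPM in the IgG1 mice and 234, 1937 and 1172 CPM in the ipilimumab mice, with Postn the most abundant (150 of 664 UMIs), so this list was highest in the mouse with fewest members. Of 13 listed genes of surfactant-producing alveolar type 2 (AT2) cells, 12 had a UMI and Lyz1 had none. Their sum was 47.5, 26.1 and 28.3 CPM in the IgG1 mice and 1437, 12.1 and 26.6 CPM in the ipilimumab mice, and 404 of the 406 Sftpc UMIs, the most abundant gene, lay in 1 cell of ipilimumab replicate 1. Of the 17 endothelial genes 13 had a UMI, with Pecam1 the most abundant at 48 UMIs and Kdr, Tie1 and Gpihbp1 at 0 beside Cdh5, which the rule fixed at 0, and the list summed to 143, 117 and 227 CPM in the IgG1 mice and 213, 133 and 192 CPM in the ipilimumab mice. Of the 18 macrophage and monocyte genes 13 had a UMI, with Lgals3 the most abundant at 116 UMIs and Marco and the 3 C1q genes at 0 beside Ptprc, fixed at 0 by the rule, for a sum of 190.2, 404 and 293 CPM in the IgG1 mice and 381, 266 and 335 CPM in the ipilimumab mice. The AT2 cell markers were at a mean of 874 CPM and the macrophage markers at 15138 CPM in all kept barcodes.

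Lymphocyte, neutrophil and erythroid genes had few UMIs. Of 17 lymphocyte genes 9 had a UMI, led by Igkc with 20 UMIs, and Cd3d, Trac, Cd8a and Ms4a1 were among those at 0. The 9 neutrophil genes gave 6 UMIs in all, with 2 each of S100a8 and Il1b and none of S100a9 or Csf3r. The 6 erythroid genes gave 3. Mesothelial genes summed to 47.5, 626 and 1484 CPM in the IgG1 mice and 464, 436 and 1150.2 CPM in the ipilimumab mice, but 591 of the 619 UMIs came from complement C3, which fibroblasts express as well, and Msln, Upk3b, Wt1 and Lrrn4 were at 0. Of 11 alveolar type 1 genes 10 had a UMI, 212 of 402 UMIs being Pdpn, which fibroblasts also express, and of 12 airway genes 4 had a UMI with Epcam, Krt8, Krt18 and Scgb3a2 at 0. Their list sums were 143, 352 and 463 CPM in the IgG1 mice and 614, 327 and 442 CPM in the ipilimumab mice (alveolar type 1), 190.2, 39.1 and 85.04 CPM in the IgG1 mice and 100.96, 109 and 107 CPM in the ipilimumab mice (airway) and 47.5, 52.2 and 28.3 CPM in the IgG1 mice and 138, 24.2 and 53.3 CPM in the ipilimumab mice (lymphocyte). The neutrophil list summed to 0, 13.05 and 0 CPM in the IgG1 mice and 8.65, 12.1 and 5.33 CPM in the ipilimumab mice and the erythroid list reached 15.98 CPM in ipilimumab replicate 3 and 0 in the other 5 mice. The share of RNA from outside the cell was estimated from barcodes of at most 100 UMIs and genes of neutrophils, lymphocytes, erythroid cells and AT2 cells. It came to 0.723%, 0.569% and 0.563% in the IgG1 and 11.1%, 0.472% and 0.992% in the ipilimumab members. This estimate counts every AT2 UMI as outside RNA. In ipilimumab replicate 1, 450 of the 549 UMIs it used were of surfactant genes, 404 of them Sftpc in 1 cell. The 11.1% thus largely reflects that cell and is no measure for the 26 members of that mouse. None of the 71 cells was among the barcodes with the highest simulated-doublet scores.

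**Figure D2:**
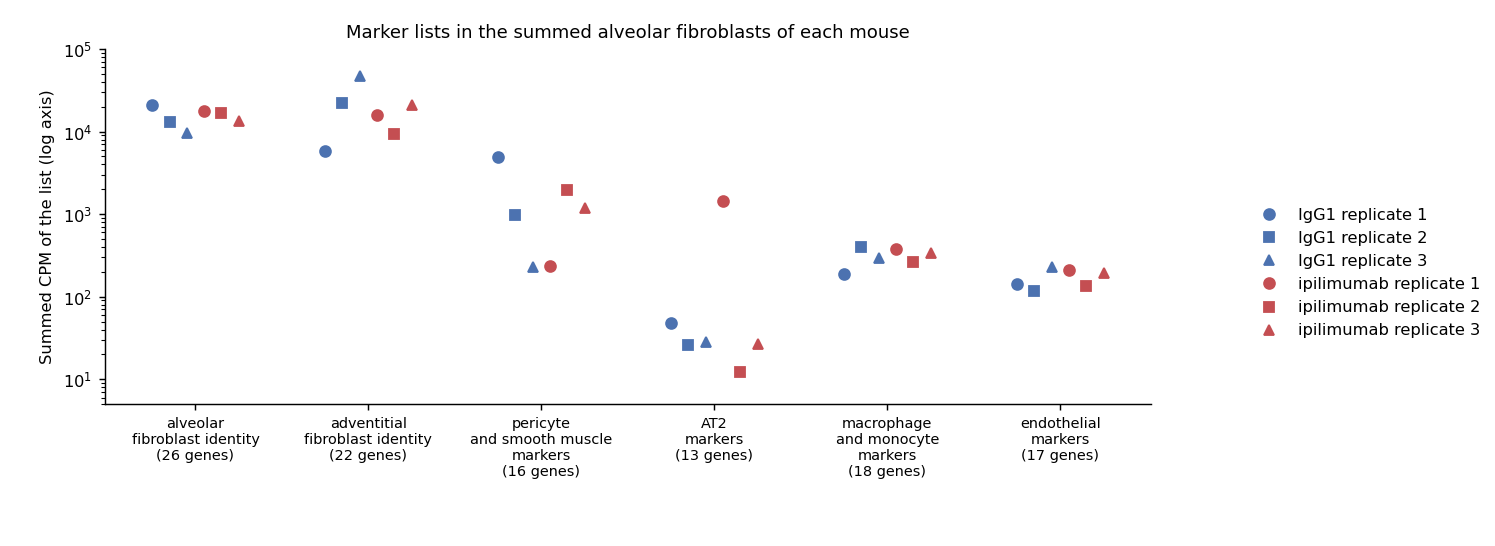
Summed CPM (log axis) of 6 gene lists in the alveolar fibroblasts of each mouse, 1 point per mouse. IgG1 replicate 1, with 3 cells, has the lowest adventitial and the highest pericyte sum, and ipilimumab replicate 1 has the highest AT2 sum (1437 CPM).

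The profile of the members set against adventitial fibroblasts of the same 5 mice with at least 5 members is given as a description, since the rule divided the cells. The cells with pericyte genes stayed in these sums, and levels in pericytes and smooth muscle cells are not given here. Among genes the rule did not use, Fat3, a giant cadherin, was listed at 369 ± 258 CPM in alveolar and 2.699 ± 6.04 CPM in adventitial fibroblasts (mean ± SD over 5 mice). Nebl, which encodes the actin-binding protein nebulette, was at 793 ± 438 CPM in alveolar and 25.4 ± 21.03 CPM in adventitial fibroblasts, and Itga8, the integrin chain that binds nephronectin, at 657 ± 365 CPM in alveolar and 25.5 ± 16.2 CPM in adventitial fibroblasts. Col13a1, a transmembrane collagen often used to name this cell, was at 212 ± 126 CPM in alveolar and 8.73 ± 7.86 CPM in adventitial fibroblasts. All of these were higher in the alveolar fibroblasts of each of the 5 mice.

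Further leading genes in the same direction in 5 of 5 mice included the cytoskeletal linker Macf1 (3645 ± 1559.8 CPM in alveolar and 398 ± 105 CPM in adventitial fibroblasts), the L-type calcium channel gene Cacna1d (683 ± 260.4 CPM in alveolar and 82.4 ± 17.2 CPM in adventitial fibroblasts), the cadherin gene Cdh11 (774 ± 268 CPM in alveolar and 141 ± 32.8 CPM in adventitial fibroblasts) and the matrix gene Spon1 (603 ± 254 CPM in alveolar and 104 ± 23.99 CPM in adventitial fibroblasts). Among secreted factors Hgf, hepatocyte growth factor, was at 122 ± 78.8 CPM in alveolar and 21.5 ± 11.3 CPM in adventitial fibroblasts, and Bmp3 was at 116 ± 72.2 CPM in alveolar and 17.6 ± 4.99 CPM in adventitial fibroblasts. Aldh1a1, which makes retinoic acid, was at 563 ± 226 CPM in alveolar and 128 ± 37.5 CPM in adventitial fibroblasts. Among all 1854 genes at a mean of at least 100 CPM over both kinds of fibroblast, 17.7% were higher in alveolar fibroblasts in 5 of 5 mice and 17.0% lower. Of the 12 listed alveolar fibroblast genes at that level that the rule did not use, 9 were higher in 5 of 5 mice and 0 were lower.

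The opposite set included Hhip, a hedgehog-binding protein, with 43.5 ± 41.02 CPM in alveolar and 710.4 ± 548 CPM in adventitial fibroblasts, the TGF-β-induced matrix gene Tgfbi with 8.13 ± 10.03 CPM in alveolar and 231 ± 33.6 CPM in adventitial fibroblasts and Serpinf1 with 73.8 ± 50.1 CPM in alveolar and 639.7 ± 100.8 CPM in adventitial fibroblasts. It also held the scavenger receptor gene Scara5 (15.8 ± 23.5 CPM in alveolar and 252 ± 43.1 CPM in adventitial fibroblasts) and the ectonucleotidase gene Entpd2 (20.6 ± 16.1 CPM in alveolar and 199 ± 62.2 CPM in adventitial fibroblasts). The monocyte chemokine gene Ccl2 was at 30.9 ± 23.7 CPM in alveolar and 251 ± 145 CPM in adventitial fibroblasts and the eosinophil chemokine gene Ccl11 at 62.5 ± 90.1 CPM in alveolar and 282 ± 106 CPM in adventitial fibroblasts. Of the 16 chemokine, cytokine and inflammatory genes at a mean of at least 100 CPM, 7 were lower in the alveolar fibroblasts of 5 of 5 mice and 0 were higher, beside the 17.0% of all genes that were lower. Of 18 endoplasmic reticulum and secretion genes 9 were lower and 0 higher, of 18 matrix degradation genes 7 and 1, and of 11 collagen processing genes 5 and 2. The rule asked both kinds of fibroblast for stromal genes, so the presence of the fibrillar collagens was largely fixed by it, with Col1a1 at 1011 ± 351 CPM in alveolar and 1664 ± 333 CPM in adventitial fibroblasts and Col1a2 at 1518 ± 529 CPM in alveolar and 2699 ± 507 CPM in adventitial fibroblasts.

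**Figure D3:**
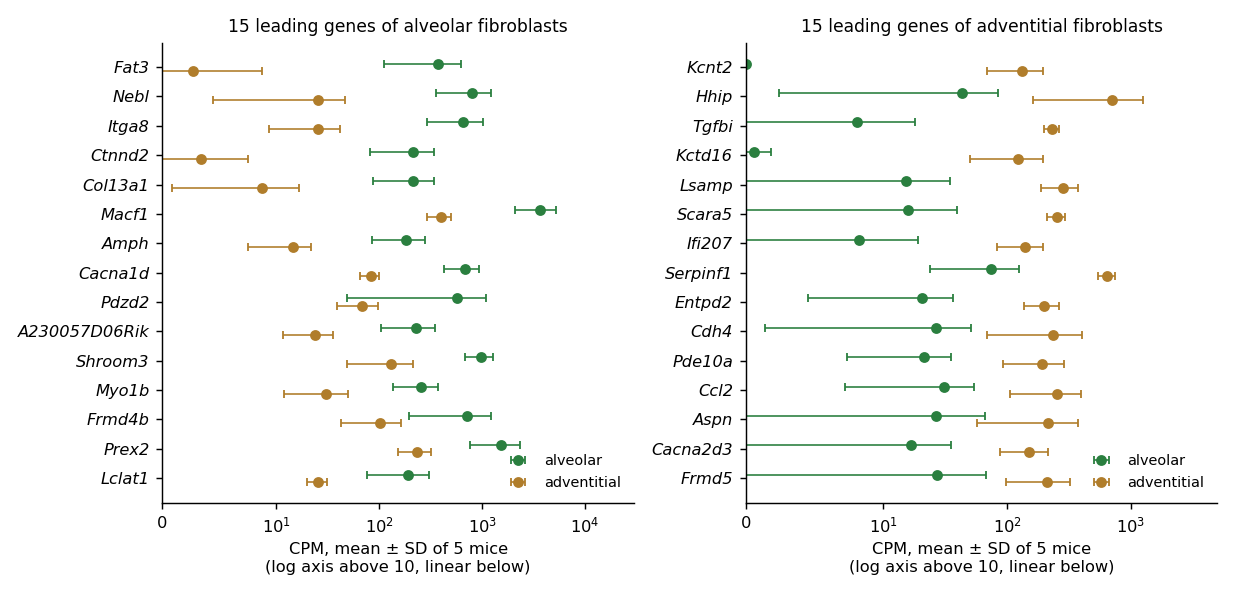
Mean ± SD over the 5 mice with at least 5 members, in CPM (log axis above 10, linear below), of the 15 genes with the highest ratio of alveolar to adventitial level (left) and the 15 with the lowest (right), each in the same direction in 5 of 5 mice, without the genes of the rule. Fat3 is at 369 CPM in alveolar and 2.70 CPM in adventitial fibroblasts.

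The share of alveolar fibroblasts lay higher in the ipilimumab than in the IgG1 libraries, and the exact permutation test used cannot reach significance with 3 mice against 3. They were 0.0662%, 0.139% and 0.239% of the kept barcodes in the IgG1 mice and 0.503%, 0.264% and 0.407% in the ipilimumab mice. Every ipilimumab value was above every IgG1 value, although ipilimumab replicate 2 and IgG1 replicate 3 were close. The means were 0.148% ± 0.0869 (SD, n = 3) and 0.391% ± 0.120 (SD, n = 3), a ratio of 2.64, and the exact two-sided permutation test gave p = 0.1, the smallest that 3 mice against 3 allow. The exact (Clopper-Pearson) 95% intervals of these 2 neighbouring mice, 0.132% to 0.473% and 0.103% to 0.471%, overlapped almost fully, and such intervals cover counting error only. The groups overlapped with a mitochondrial limit of 20%, with at least 3 marker UMIs and with other lineage genes at 0 (exact permutation p = 0.2 each). With Pi16, Dpt and Lum at 0 the ratio was 4.31, without overlap. That ratio rests on 2, 1 and 1 cells in the IgG1 mice and 8, 7 and 4 in the ipilimumab mice.

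The size of the difference depended on the cells it was measured against. Barcodes with Ptprc at 0, which leaves out cells with a UMI of this leukocyte gene, made up 9.38%, 6.32% and 6.64% of the IgG1 and 17.5%, 9.06% and 12.5% of the ipilimumab libraries, and these groups overlapped (exact permutation p = 0.2). As a share of those barcodes alveolar fibroblasts were 0.706%, 2.20% and 3.604% in the IgG1 mice and 2.87%, 2.92% and 3.24% in the ipilimumab mice. These groups overlapped, with a ratio of 1.39 and an exact permutation p of 0.5. Adventitial fibroblasts were 0.618%, 0.787% and 1.82% of the kept barcodes with IgG1 and 1.39%, 0.745% and 1.77% with ipilimumab, which overlapped too (ratio 1.21, exact permutation p = 0.8).

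The alveolar part of the fibroblasts lay higher in the ipilimumab than in the IgG1 mice, without overlap. Alveolar cells were 9.68%, 15% and 11.6% of alveolar and adventitial fibroblasts together in the IgG1 mice and 26.5%, 26.2% and 18.7% in the ipilimumab mice. The means were 12.1% ± 2.70 (SD, n = 3) and 23.8% ± 4.44 (SD, n = 3), a ratio of 1.97 with an exact two-sided permutation p of 0.1, again the smallest possible. With the 9 cells of pericyte genes left out the means were 9.60% and 21.0% and the groups still did not overlap (exact permutation p = 0.1), whereas the share of all kept barcodes then overlapped (exact permutation p = 0.2). Dissociation sets how many stromal cells enter a library, and its part in these shares was not tested. Since the mice of a group were separate libraries with no other batch given in the labels, the library and the mouse cannot be told apart.

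**Figure D4:**
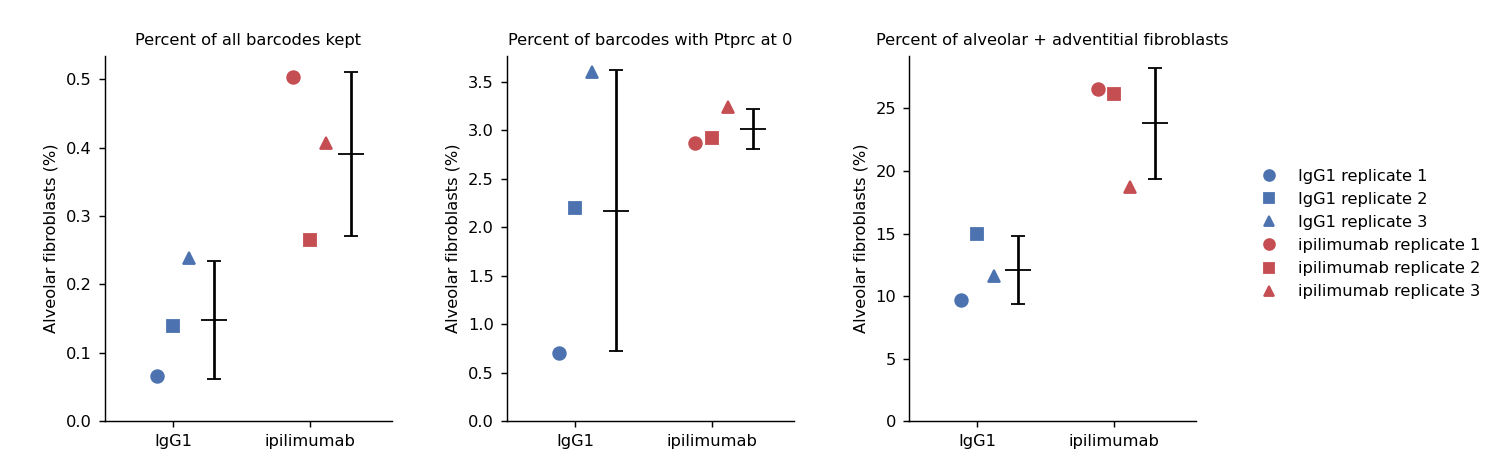
Alveolar fibroblasts as a percent of all kept barcodes (left), of barcodes with Ptprc at 0 (middle) and of alveolar plus adventitial fibroblasts (right), 1 point per mouse, with the mean ± SD of 3 mice in black. The groups do not overlap in the left and right panels and overlap in the middle one.

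No gene passed the expression test between treatments in alveolar fibroblasts. UMIs summed per mouse were compared for 2 IgG1 and 3 ipilimumab mice with edgeR's quasi-likelihood test, and genes were called at a Benjamini-Hochberg adjusted p under 0.05 with a log2 fold change over 0.3. Of 2492 genes tested 0 were called (0%), while 260 (10.4%) had an unadjusted p under 0.05, 165 higher with ipilimumab (6.62% of the genes tested) and 95 lower (3.81%). DESeq2 on the same sums called 11 genes, all higher: Chsy3, Slc8a1, Arhgap24, Nav2, Agap1, Maml3, Cxcl14, Dach1, Sox5, Pdzd2 and Frmd4b. When IgG1 replicate 1 was added, edgeR called 0 of 1923 genes, with 87 at an unadjusted p under 0.05, and DESeq2 called 0, with 49. Only 2 of the 11, Chsy3 and Cxcl14, had all ipilimumab mice above all 3 IgG1 mice.

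The genes of smallest p are described with their values. None was called by edgeR, and DESeq2 called 5 of the 16 (Chsy3, Nav2, Dach1, Slc8a1 and Arhgap24). Chsy3, a chondroitin sulfate synthase, was at 285, 65.2 and 66.1 CPM in the IgG1 mice and 447, 1029 and 447 CPM in the ipilimumab mice, so that all 3 ipilimumab mice lay above all 3 IgG1 mice (log2 fold change 3.22 ± 0.58 (SE), unadjusted p = 0.000374, adjusted p = 0.249, edgeR). Nav2, a cytoskeletal guidance gene, was at 13.05 (replicate 2) and 28.3 CPM (replicate 3) with IgG1 against 528, 412 and 181 CPM with ipilimumab (log2 fold change 4.04 ± 0.72 (SE), unadjusted p = 0.000352, adjusted p = 0.249). IgG1 replicate 1, outside the fit, had 238 CPM of Nav2 from 5 UMIs, inside the ipilimumab range. Dach1, a transcription cofactor, was at 52.2 (replicate 2) and 18.9 CPM (replicate 3) with IgG1 against 297, 327 and 213 CPM with ipilimumab (log2 fold change 2.996 ± 0.54 (SE), unadjusted p = 0.000378, adjusted p = 0.249), and at 380.3 CPM in IgG1 replicate 1, above all 5 other mice. The same held for Znrf3, a ubiquitin ligase that removes Wnt receptors, with 39.1 (replicate 2) and 28.3 CPM (replicate 3) with IgG1 against 245, 182 and 176 CPM with ipilimumab (log2 fold change 2.57 ± 0.48 (SE), unadjusted p = 0.000483, adjusted p = 0.249) but 380.3 CPM in IgG1 replicate 1.

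Slc8a1, the sodium-calcium exchanger, was at 65.2 (replicate 2) and 179.5 CPM (replicate 3) with IgG1 against 759, 993 and 612 CPM with ipilimumab (log2 fold change 2.60 ± 0.51 (SE), unadjusted p = 0.000663, adjusted p = 0.249), with 808 CPM in IgG1 replicate 1. Arhgap24, which switches off Rac GTPases, was at 209 (replicate 2) and 208 CPM (replicate 3) with IgG1 against 1004, 1308 and 660.3 CPM with ipilimumab (log2 fold change 2.22 ± 0.44 (SE), unadjusted p = 0.000715, adjusted p = 0.249), with 903 CPM in IgG1 replicate 1. In both genes the left-out mouse thus sat among the ipilimumab mice. Ccbe1, an extracellular factor of lymphatic growth, had 0, 0 and 1 UMIs in the IgG1 mice and 38, 16 and 24 in the ipilimumab mice, and Schip1 had 5, 1 and 0 UMIs in the IgG1 mice and 49, 16 and 19 in the ipilimumab mice. With 1 UMI in the IgG1 mice of the fit, their pooled ratios were 23.1 (exact 95% counting interval 4.02 to 923) and 24.8 (4.34 to 993), at an edgeR adjusted p of 0.249 each. IgG1 replicate 1, outside the fit, had 238 CPM of Schip1, above all 3 ipilimumab mice. Of these 8 genes 2, Chsy3 and Ccbe1, were higher without overlap over all 6 mice, as were 7.87% of the genes tested.

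On the lower side, Itgbl1, an integrin beta-like secreted protein, was at 190.2, 352 and 217 CPM in the IgG1 mice and 89.4, 48.4 and 63.9 CPM in the ipilimumab mice, without overlap (log2 fold change -1.99 ± 0.41 (SE), unadjusted p = 0.000857, adjusted p = 0.249, edgeR). Htra1, a secreted serine protease, was at 95.1, 157 and 302 CPM in the IgG1 mice and 89.4, 48.4 and 74.6 CPM in the ipilimumab mice, also without overlap and with IgG1 replicate 1 just above ipilimumab replicate 1 (log2 fold change -1.66 ± 0.43 (SE), unadjusted p = 0.00394, adjusted p = 0.293). Galnt15, which starts O-linked glycans, was at 157 (replicate 2) and 198 CPM (replicate 3) with IgG1 against 46.2, 36.3 and 26.6 CPM with ipilimumab (log2 fold change -2.25 ± 0.49 (SE), unadjusted p = 0.00139, adjusted p = 0.249), with no UMI in IgG1 replicate 1. The other 5, the antiviral zinc finger gene Zc3hav1, the non-classical MHC gene H2-T23, Naaladl2, the calmodulin gene Calm3 and Rnd3, had log2 fold changes of -1.69, -1.34, -1.30, -1.42 and -1.54 with edgeR adjusted p from 0.249 to 0.346. In each of these 5 the value of IgG1 replicate 1 fell within or below the ipilimumab range. Of the 8 genes 2 were lower without overlap over 6 mice, as were 4.41% of the genes tested.

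**Figure D5:**
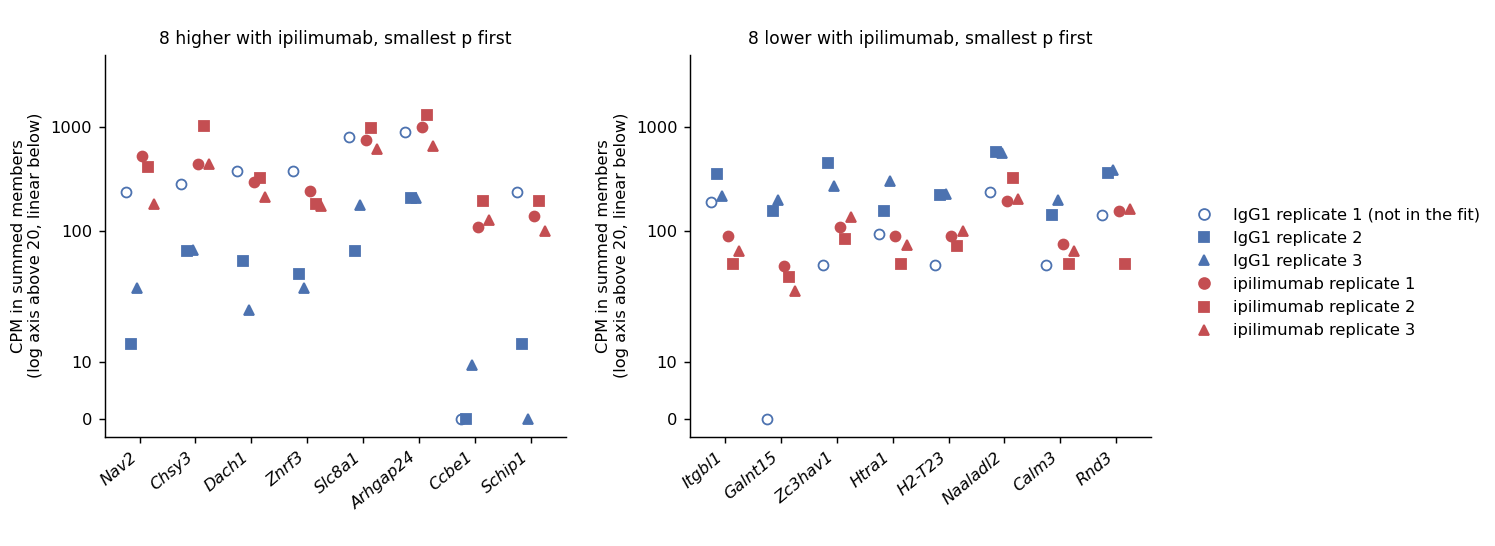
CPM per mouse (log axis above 20, linear below) of the 8 genes higher (left) and 8 lower (right) with ipilimumab that had the smallest unadjusted p (edgeR). None was called by edgeR, and 5 of the 16 by DESeq2. Open circles are IgG1 replicate 1 (3 cells, not in the fit), which lies within or above the ipilimumab range for 6 of the 8 genes on the left.

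The genes on the higher side were long. The gene spans in the GENCODE annotation of GRCm38 had a median of 50.2 kb over all 2492 genes tested, 169 kb over the 165 genes higher at an unadjusted p under 0.05, and 22.5 kb over the 95 that were lower. The 8 of smallest p had a median of 374 kb on the higher and 41.3 kb on the lower side. Malat1, a nuclear RNA, was at 28335, 24266 and 16678 CPM in the IgG1 mice and 22702, 34637 and 22578 CPM in the ipilimumab mice, and mitochondrial UMIs made up 2.89%, 2.11% and 2.19%, and 2.69%, 2.94% and 2.32%. Malat1 overlapped between the groups, whereas the mitochondrial shares of the 2 IgG1 mice in the fit lay below those of the 3 ipilimumab mice. The part of RNA quality in the gene differences was not tested.

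No gene was called in either list of fibroblast identity. The alveolar list holds Npnt, Tcf21, Limch1 and Pdgfra and the adventitial list Pi16, Dpt and Lum, all used by the rule, so the list values are given as a description. Of the 26 alveolar fibroblast genes 21 were tested, 0 were called, 5 were higher with ipilimumab at an unadjusted p under 0.05 (Npnt, Ces1d, Macf1, Scube2 and Slit2) and 0 lower, where 6.62% of all genes tested were higher and 3.81% lower at that limit. Their median log2 fold change was 0.52, beside 0.00 over all genes tested. Of the 22 adventitial genes 15 were tested, 0 were called and 7 were lower at an unadjusted p under 0.05 (Col14a1, Ly6a, Cd34, Igfbp6, Dcn, Gsn and Mfap5), with a median of -1.13. The list sums were 21204, 13242 and 9609.9 CPM in the IgG1 mice and 17605, 16622 and 13622 CPM in the ipilimumab mice for the alveolar and 5848, 22348 and 47133 CPM in the IgG1 mice and 15744, 9371 and 20810.4 CPM in the ipilimumab mice for the adventitial genes. IgG1 replicate 1 had the highest alveolar and the lowest adventitial sum of all 6 mice, so neither list separated the groups once it was counted.

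The genes of the rule chose the members, so their values are a description only. Pi16, Dpt and Lum made up 1.10%, 15.2% and 41.7% of the marker UMIs (the 6 genes Npnt, Tcf21, Limch1, Pi16, Dpt and Lum) of the members in the IgG1 mice and 14.3%, 5.76% and 21.2% in the ipilimumab mice. These values overlapped widely, and IgG1 replicate 3 stood highest. Npnt was at 1569, 613 and 161 CPM in the IgG1 mice and 1021, 1017 and 841 CPM in the ipilimumab mice and Limch1 at 2567, 1513 and 1266 CPM in the IgG1 mice and 2091, 1768 and 1299 CPM in the ipilimumab mice. Tcf21 was at 143, 339 and 132 CPM in the IgG1 mice and 225, 387 and 314 CPM in the ipilimumab mice, Inmt at 1093, 2113 and 2693 CPM in the IgG1 mice and 1693, 1162 and 2071 CPM in the ipilimumab mice and Pdgfra at 903, 404 and 491 CPM in the IgG1 mice and 779, 593 and 634 CPM in the ipilimumab mice. In each of these 5 genes the groups overlapped, and 4 of the 5 had their highest or lowest value in IgG1 replicate 1. How far the mix of adventitial-leaning cells enters the gene differences was not tested.

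Among matrix genes, the group most studied in fibrosis, no direction prevailed. Of 18 collagens 12 were tested, 6 with positive and 6 with negative fold changes (median log2 fold change 0.06). Col1a1 was at 333, 926 and 1181 CPM in the IgG1 mice and 825, 605 and 1518 CPM in the ipilimumab mice, Col1a2 at 713, 1409 and 2059.9 CPM in the IgG1 mice and 1304, 799 and 2018 CPM in the ipilimumab mice and Col3a1 at 428, 1983 and 1909 CPM in the IgG1 mice and 1217, 1344 and 2460.2 CPM in the ipilimumab mice. All 3 overlapped between the groups, with the lowest value in IgG1 replicate 1. Col6a3, a chain of the beaded-filament collagen VI, was higher (log2 fold change 1.02) and Col14a1, a fibril-associated collagen, lower (-1.13) at unadjusted p under 0.05, with edgeR adjusted p of 0.372 and 0.472. In the 29 elastic fibre and matrix glycoprotein genes, 24 tested, the microfibril gene Mfap4 was at 95.1, 326 and 255 CPM in the IgG1 mice and 487, 448 and 1139.6 CPM in the ipilimumab mice. Mfap4 is one of the 5 stromal genes of the rule, so these values are a description. Decorin (Dcn) was at 0, 2818 and 8022 CPM in the IgG1 mice and 1353, 593 and 2716 CPM in the ipilimumab mice (log2 fold change -1.84 ± 0.62 (SE), unadjusted p = 0.0164, adjusted p = 0.372), while biglycan (Bgn) at 808, 2361 and 1739 CPM in the IgG1 mice and 1212, 1005 and 2098 CPM in the ipilimumab mice and Sparcl1 at 998, 1722 and 2230.03 CPM in the IgG1 mice and 1315, 1114 and 1640.1 CPM in the ipilimumab mice overlapped.

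No gene that processes or remodels matrix was called by edgeR. Over all genes tested, 6.62% were higher and 3.81% lower at an unadjusted p under 0.05. Of 19 collagen processing genes 13 were tested and 1, Pcolce, was lower at an unadjusted p under 0.05 (log2 fold change -0.88, edgeR adjusted p = 0.4101). The most abundant were the collagen-binding genes Sparc, Pcolce2 and Serpinh1, at means over 5 mice of 1459.7, 1117 and 755 CPM. Of 24 matrix degradation genes 17 were tested, and 1 (Mmp3) was higher and 1 (Timp2) lower at an unadjusted p under 0.05 (edgeR). The stromelysin gene Mmp3 was at 0, 78.3 and 94.5 CPM in the IgG1 mice and 912, 133 and 192 CPM in the ipilimumab mice, higher without overlap and by far highest in ipilimumab replicate 1 (log2 fold change 2.28 ± 0.87 (SE), unadjusted p = 0.0287, adjusted p = 0.408). The inhibitor genes Timp2 and Timp3 were at 380.3, 822 and 1247 CPM in the IgG1 mice and 551, 266 and 655 CPM in the ipilimumab mice and at 666, 1826 and 2608 CPM in the IgG1 mice and 1846, 1199 and 1512 CPM in the ipilimumab mice, and the protease gene Adamts9 at 238, 1226 and 151 CPM in the IgG1 mice and 493, 690.1 and 868 CPM in the ipilimumab mice.

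Contractile and myofibroblast genes gave no gene at an unadjusted p under 0.05 among 10 tested of 20 (median log2 fold change 0.27). Acta2, α-smooth muscle actin, had 0, 13 and 3 UMIs in the IgG1 mice and 19, 0 and 14 in the ipilimumab mice, and Cthrc1 and Lrrc15, markers of activated scar-forming fibroblasts, had 0 UMIs in all members. Postn was at 1189, 235 and 0 CPM in the IgG1 mice and 0, 496 and 351 CPM in the ipilimumab mice, its UMIs all lying in 8 of the 9 cells with pericyte genes. Itga8 was at 808, 978 and 75.6 CPM in the IgG1 mice and 764, 920.1 and 548 CPM in the ipilimumab mice, Cald1 at 666, 952 and 387 CPM in the IgG1 mice and 378, 896 and 591 CPM in the ipilimumab mice and vinculin (Vcl) at 808, 352 and 302 CPM in the IgG1 mice and 404, 678 and 373 CPM in the ipilimumab mice, each overlapping.

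Of the listed niche ligands and growth factors, 35 had a UMI in a member, and the list as a whole had UMIs in every mouse. Of 41 listed genes 13 were tested (median log2 fold change 0.03), and Slit2, a guidance ligand, was at 808, 704 and 340.2 CPM in the IgG1 mice and 1261, 1562 and 937 CPM in the ipilimumab mice, higher without overlap (log2 fold change 1.26 ± 0.43 (SE), unadjusted p = 0.01804, adjusted p = 0.372). Slit3 was at 475, 691 and 1531 CPM in the IgG1 mice and 1171, 424 and 1885 CPM in the ipilimumab mice and angiopoietin 1 (Angpt1) at 1284, 522 and 265 CPM in the IgG1 mice and 470.2, 1077 and 533 CPM in the ipilimumab mice, both overlapping. Fgf10, the epithelial growth factor linked to lipofibroblasts, had 3, 13 and 11 UMIs in the IgG1 mice and 70, 27 and 21 in the ipilimumab mice, or 143, 169.6 and 104 CPM in the IgG1 mice and 202, 327 and 112 CPM in the ipilimumab mice, which overlapped. The Dickkopf family gene Dkk3 was lower at an unadjusted p under 0.05 (log2 fold change -0.93, edgeR adjusted p = 0.408), and Grem1, Nog, Btc, Sfrp2, Frzb and Wif1 had no UMI in any member.

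In the TGF-β and BMP pathway 22 of 30 genes were tested, with 11 fold changes on each side of 0, none at an unadjusted p under 0.05 and a median of -0.03. The most abundant were Thbs1 (285, 2192 and 274 CPM in the IgG1 mice and 975, 1549.7 and 1719.997 CPM in the ipilimumab mice), an activator of latent TGF-β, Ccn1 (1046, 1435 and 529 CPM in the IgG1 mice and 747, 690.1 and 1358 CPM in the ipilimumab mice) and Id3 (808, 1305 and 472 CPM in the IgG1 mice and 796, 714 and 895 CPM in the ipilimumab mice). Lipid handling genes, 9 tested of 23, and retinoid and xenobiotic genes, 14 tested of 25, had medians of -0.32 and -0.50. Apoe was at 1284, 1239 and 2287 CPM in the IgG1 mice and 1151, 472 and 1704 CPM in the ipilimumab mice, and Abca1, the cholesterol exporter, and Aldh1a1 at means over 5 mice of 171 and 563 CPM. The flavin monooxygenase gene Fmo2 was at 1046, 1435 and 964 CPM in the IgG1 mice and 1076, 654 and 1001 CPM in the ipilimumab mice. Ces1d, a carboxylesterase, was higher (log2 fold change 1.56) and the retinol carrier Rbp4 lower (-1.34) at unadjusted p under 0.05, with edgeR adjusted p of 0.372 and 0.472. With IgG1 replicate 3 left out the log2 fold change of Rbp4 was 0.36, so its direction rests on that mouse.

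Among 39 chemokine, cytokine and inflammatory genes 15 were tested, of which 10 had positive fold changes (median 0.30). Cxcl14, a chemokine of tissue-resident fibroblasts, was at 285, 26.1 and 132 CPM in the IgG1 mice and 505, 593 and 362 CPM in the ipilimumab mice, higher in all ipilimumab than in all IgG1 mice (log2 fold change 2.48 ± 0.58 (SE), unadjusted p = 0.00205, adjusted p = 0.255, edgeR). The interferon-induced T cell chemokine gene Cxcl10 was at 0, 117 and 123 CPM in the IgG1 mice and 291, 642 and 197 CPM in the ipilimumab mice, also higher without overlap (log2 fold change 1.57 ± 0.58 (SE), unadjusted p = 0.0241, adjusted p = 0.399). Cxcl12 was at 0, 130.5 and 246 CPM in the IgG1 mice and 66.3, 60.5 and 101.2 CPM in the ipilimumab mice (log2 fold change -1.34 ± 0.43 (SE), unadjusted p = 0.01299, adjusted p = 0.372), lower in the 5 mice of the fit but absent from IgG1 replicate 1. The NF-κB genes Nfkbia, Nfkbiz and the adhesion gene Icam1 were at means over 5 mice of 734, 601 and 485 CPM. In adventitial fibroblasts Cxcl10 was at 151, 407 and 183 CPM in the IgG1 mice and 536, 766 and 838 CPM in the ipilimumab mice, likewise without overlap.

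Interferon response and MHC class I genes, 15 tested of 45, had 11 negative fold changes (median -0.45). B2m, the invariant chain of MHC class I, was at 523, 1513 and 1417 CPM in the IgG1 mice and 718, 654 and 868 CPM in the ipilimumab mice (log2 fold change -0.99 ± 0.32 (SE), unadjusted p = 0.0128, adjusted p = 0.372). Ifitm3 was at 713, 1487 and 1786 CPM in the IgG1 mice and 1009.6, 714 and 1230.1 CPM in the ipilimumab mice, and the interferon-γ-induced GTPase gene Iigp1 at 285, 835 and 123 CPM in the IgG1 mice and 493, 1695 and 580.4 CPM in the ipilimumab mice, both overlapping. For B2m and Ifitm3 the 3 ipilimumab mice lay below IgG1 replicates 2 and 3 and IgG1 replicate 1 lay below all 3 ipilimumab mice. Complement genes, 7 tested of 16, had 6 negative fold changes (median -0.60), with Serping1, the C1 inhibitor, at 571, 1448 and 2117 CPM in the IgG1 mice and 1021, 726 and 1400.5 CPM in the ipilimumab mice and C3 at 47.5, 587 and 1474 CPM in the IgG1 mice and 415, 375 and 1139.6 CPM in the ipilimumab mice, both overlapping.

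Senescence and p53 target genes, 12 tested of 30, had 9 negative fold changes and a median of -0.47. Cdkn1a, which encodes the cell cycle inhibitor p21, was at 47.5, 483 and 765 CPM in the IgG1 mice and 387, 230.03 and 181 CPM in the ipilimumab mice (log2 fold change -1.23 ± 0.42 (SE), unadjusted p = 0.0174, adjusted p = 0.372). IgG1 replicate 1, with 1 UMI, had the lowest value of the 6 mice, so the groups overlapped. Single cells weighed heavily, with 52 UMIs of Cdkn1a in 1 cell of IgG1 replicate 3 and 46 in 1 cell of ipilimumab replicate 1. Cdkn2a, which encodes p16, had no UMI in any member. Igfbp6 was at 143, 1526 and 1549.7 CPM in the IgG1 mice and 583, 593 and 905 CPM in the ipilimumab mice (log2 fold change -1.17 ± 0.34 (SE), unadjusted p = 0.007904, adjusted p = 0.346), and Igfbp7 and Btg2 at means over 5 mice of 1618 and 989 CPM. Of the 23 cell division genes found in the files 16 had a UMI, for 428, 548 and 689.8 CPM in the IgG1 mice and 594, 593 and 586 CPM in the ipilimumab mice, and 7, Cdk1, Ccnb1 and Cenpf among them, had none. Mki67 had 1 UMI, and Ccnb2 was found in 7 members and Cenpa in 6. The list mean over 6 mice was 573 CPM, and in adventitial fibroblasts 784 CPM. The 3 genes that could be tested, Tuba1b, Tubb5 and Pcna, are not restricted to dividing cells.

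Immediate early and dissociation genes were abundant, with 28 of 32 tested, 21 negative fold changes and a median of -0.24. Over all genes tested 1253 fold changes were positive and 1239 negative. Ier3 and Klf2 had an unadjusted p under 0.05 (edgeR), 1 of them higher and 1 lower. The list sum was 14691, 31415 and 32657 CPM in the IgG1 mice and 30634, 24044 and 26577 CPM in the ipilimumab mice, lowest in IgG1 replicate 1. Egr1, Fos and Junb were at means over 5 mice of 3935, 3483 and 2629 CPM. Endoplasmic reticulum and secretion genes, 19 tested of 24, had none at an unadjusted p under 0.05 and a median of -0.25, with Hspa5, Hsp90b1 and Calr at 1272, 566 and 462 CPM over 5 mice. Over all 18 pathway lists edgeR called 0 genes, while DESeq2 called Cxcl14 of the chemokine, cytokine and inflammatory list.

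The share of members with a UMI of a state gene was compared after each cell was thinned to 1000 UMIs. Of 17 genes 14 had a UMI in a thinned member. With 3 mice against 3 the smallest possible p is 0.1, so none could pass (exact permutation tests, lowest p = 0.1, adjusted p = 1 for each). Fgf10 was detected in 0%, 0% and 0% of the members of the IgG1 mice and 23.1%, 18.2% and 11.8% of those of the ipilimumab mice, the only gene of the 17 without overlap (exact permutation p = 0.1). These shares rest on 10 cells and on a single random draw of UMIs per cell. Unthinned, Fgf10 was found in 33.3%, 66.7% and 50% of the members of the IgG1 mice and 50%, 36.4% and 47.1% of those of the ipilimumab mice, which overlapped and lay on average lower with ipilimumab. Cdkn1a was detected in 0%, 50% and 50% of the members of the IgG1 mice and 19.2%, 9.09% and 17.6% of those of the ipilimumab mice and Cxcl14 in 33.3%, 0% and 0% of the members of the IgG1 mice and 30.8%, 27.3% and 17.6% of those of the ipilimumab mice when thinned, with overlap in both. Inmt was detected in 33.3%, 50% and 87.5% of the members of the IgG1 mice and 61.5%, 36.4% and 58.8% of those of the ipilimumab mice. Col1a1, whose detection helped to choose the members, was found in 33.3%, 50% and 75% of the members of the IgG1 mice and 42.3%, 54.5% and 82.4% of those of the ipilimumab mice, a description. In B cells, which should lack these genes, the thinned shares averaged 0.0185% for Fgf10, 0.111% for Inmt, 0.123% for Col1a1 and 2.77% for Cdkn1a, a gene many cells express.

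Of the rarer state genes, Plin2, which coats lipid droplets, was detected in 5.56% of thinned members on average with IgG1 and 1.96% with ipilimumab, Sfrp1 in 9.72% and 8.02%, Timp1 in 15.3% and 11.9%, and the alarmin Il33 in 4.17% and 1.96%. The thinned Plin2 shares rested on 2 cells, as did those of Il33, and the ipilimumab mean of Plin2 was about equal to the 1.96% seen in B cells. The inflammatory genes Saa3, Lcn2 and Ccl2 had 1, 6 and 31 UMIs in all 71 members. The median depth was 10561 UMIs in the members and 5261.5 to 6678.5 UMIs in the B cells of each library.

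Whether the treatment difference in alveolar fibroblasts differed from that in adventitial fibroblasts was tested as an interaction in edgeR, with the mouse as a block, over 7043 genes and the same 5 mice. In all 1 gene was called (0.0142% of those tested), Spp1, and 336 (4.77%) had an unadjusted p under 0.05. Spp1 encodes osteopontin, and had 0, 0 and 0 UMIs in the IgG1 mice and 0, 4 and 16 in the ipilimumab mice in alveolar fibroblasts. Of these UMIs 17 lay in 2 of the 9 members with pericyte genes, in ipilimumab replicates 2 and 3. In adventitial fibroblasts it was at 7.0001, 3889.6 and 5.27 CPM in the IgG1 mice and 1.93, 11.02 and 13.5 CPM in the ipilimumab mice, so IgG1 replicate 2 alone was high. Without IgG1 replicate 2, and likewise without ipilimumab replicate 3, edgeR called 0 genes, with 490 and 243 at an unadjusted p under 0.05. DESeq2 was not run for the interaction. The interaction of Cxcl14 was 4.13 ± 0.94 (SE, log2, edgeR adjusted p = 0.815), where adventitial fibroblasts had 91.002, 121 and 126 CPM in the IgG1 mice and 77.1, 5.51 and 58.04 CPM in the ipilimumab mice. For Chsy3 it was 2.58 ± 0.83 (adjusted p = 0.972), with 45.5, 64.3 and 80.8 CPM in the IgG1 mice and 150.4, 55.1 and 143 CPM in the ipilimumab mice in adventitial fibroblasts, so no gene difference of smallest p is shown to be particular to alveolar fibroblasts.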

How the data were processed

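Single-cell 3′ libraries (10x Genomics v3.1) of 6 mouse lungs were used, 1 mouse per library. The authors deposited unfiltered matrices of whole UMI counts per gene and barcode, aligned to mm10 with Cell Ranger, for which the submitters' notes give version 7.0.0. The study's methods and the file headers name other versions, so whether intronic reads were counted is not known here. The authors' later removal of free RNA is not in these deposited counts. Groups came from the labels. The members, gene lists and tests were chosen with earlier results of these data known. UMIs of members were summed per mouse, and mice with fewer than 5 members were left out of the fit. edgeR 4.0.16 (R 4.3.3) filtered low genes, scaled by TMM and ran the quasi-likelihood test with Benjamini-Hochberg adjustment over all genes tested. DESeq2 1.42.0 was an alternative. The edgeR step was tested on simulated data. Shares were compared with exact permutation tests (scipy 1.17.1), with exact (Clopper-Pearson) 95% intervals that cover counting error only. Doublets were scored against simulated pairs over 30 principal components (scikit-learn 1.9.0), marking 0.8% per 1000 barcodes, and marked barcodes were kept except in an alternative. B cells were barcodes with at least 3 UMIs of B cell genes. Named genes were those of the rule, the 8 higher and 8 lower of smallest p, the 3 most abundant tested genes of each list, and 17 state genes. Of the genes so named, 1 is not reported here. Members of a list at an unadjusted p under 0.05, the leading genes against adventitial fibroblasts, Ccnb2, Cenpa and genes at 0 were named after their values were seen, and the limit of 100 CPM for list counts against adventitial fibroblasts was set then too. Alternatives changed the quality limits, the marker limits, scaling, filter, test and mice. Spread between mice may include technical variation, since each mouse gave 1 library.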

Additional observations from a re-analysis of the deposited data

Results flagged for a closer look

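The ipilimumab effect on Spp1 differed between alveolar and adventitial fibroblasts by 14.2 ± 1.49 (SE) on the log2 scale (edgeR interaction, adjusted p = 0.00825, 5 mice), and that test of the difference is why it is listed here. With 0 UMIs in the IgG1 members of the fit, the fitted size is no bound. The alveolar sums held 0, 0 and 0 UMIs in the IgG1 and 0, 4 and 16 UMIs in the ipilimumab mice, 17 of them in 2 of the 9 members with pericyte genes. In adventitial fibroblasts Spp1 was at 7.0001, 3889.6 and 5.27 CPM in the IgG1 mice and 1.93, 11.02 and 13.5 CPM in the ipilimumab mice. IgG1 replicate 2 alone was high, and the call was lost without that mouse and without ipilimumab replicate 3. The cause was not tested.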

How the results depend on the processing

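The ratio of cell shares was 2.07 to 3.82 when each mouse was left out in turn (2.64 with all), and the ratio of the alveolar share of fibroblasts 1.79 to 2.24 (1.97 with all). The shares of all kept barcodes overlapped between groups with a mitochondrial limit of 20% (ratio 2.33), with at least 3 marker UMIs (2.33), with other lineage genes at 0 (2.36) and without the 9 cells with pericyte genes (2.74, chosen after seeing the data). With Pi16, Dpt and Lum at 0 the ratio was 4.31 and the groups did not overlap, with only 2, 1 and 1 such cells in the IgG1 mice. edgeR called 0 genes in alveolar fibroblasts, and 0 to 24 when each mouse of the fit was left out, 24 without IgG1 replicate 2 and 4 without IgG1 replicate 3, where the lone IgG1 mouse is assumed to vary like the others. It called 46 with other lineage genes at 0 and 33 without the cells with pericyte genes, both with 1 IgG1 mouse, and 104 (84 higher, 20 lower) with no filter beyond 1 UMI, while DESeq2 called 11. For the interaction 13 genes were called without the filter, and 0 to 2 with each mouse left out, 0 without IgG1 replicate 2 or ipilimumab replicate 3 and 2 without IgG1 replicate 3. The cause of these changes was not tested. The log2 fold change of Rbp4 was -1.998 with IgG1 replicate 2 left out and 0.36 with IgG1 replicate 3 left out, and without thinning the differences in percent of members were -7.02 for Col1a1 and -5.53 for Fgf10, against 6.96 and 17.7 when thinned. Of 42 genes with a fold change, 41 kept their sign under every alternative run. Same-numbered mice had correlations of -0.25, -0.13 and 0.19, so the numbers do not pair the samples. With a replicate block, edgeR called 0 genes (247 at an unadjusted p under 0.05, DESeq2 not run with the block), and the ratio of shares was 2.64 with an exact permutation p of 0.25. Members without any adventitial UMI were too few to fit. With 3 to 26 cells a mouse, the depth limits every gene value.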
